A study of Mus musculus with 16 samples.

Results

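The inhibitory checkpoint receptors examined here were Pdcd1, Ctla4, Lag3, Havcr2, Tigit, Btla, Cd160 and Cd244a, taken by gene symbol. All 8 were found among the 18929 genes of the expression table, and all 8 passed the filter on low values and were tested. Messenger RNA was measured in 16 B16F10 tumors, 4 in each of 4 groups. B16F10 is a line of mouse melanoma cells, injected here on the right side of the abdomen. The hosts were female C57BL/6 mice aged 7 to 8 weeks. Treatment began at a tumor volume of about 50 mm3, was given into the peritoneum and lasted 9 to 11 days. Vehicle mice received corn oil with an isotype control antibody, and the other groups received the PD1 mAb (anti-PD1), 100 mg/kg of α-ketoglutarate (α-KG), or both (α-KG + anti-PD1, the combination). Each group held 6 mice, of which 4 tumors were sequenced. Whole tumors were sequenced, so malignant cells and every infiltrating cell contributed to each value.

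Inhibitory checkpoint receptors are membrane proteins that dampen the activity of lymphocytes once they bind their ligands. They appear on T cells after activation and stay high on T cells that meet antigen for long, a state known as exhaustion, so they mark both recent and chronic stimulation. Several are shared with other cells: CTLA-4 and TIGIT are prominent on regulatory T cells, TIM-3 (Havcr2) is carried by dendritic cells and macrophages, BTLA by B cells, CD160 by natural killer cells, and CD244 by natural killer and myeloid cells.

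The values were fragments scaled to transcript length and library total (FPKM) with 2 decimals, without counts. Depth is therefore unknown for every tumor, and low values are the least precise. Melanocyte markers summed to between 7845 and 10572 FPKM in every tumor, and the 4 keratinocyte markers to at most 0.8 FPKM. Of 13 T-cell markers, 10 were listed, and Trac, Trbc1 and Trbc2 were not. Their sum was 1.45 to 10.51 FPKM in vehicle, 9.32 to 30.79 with anti-PD1, 7.62 to 41.16 with α-KG and 25.62 to 218.26 in combination tumors. Neutrophil markers stood apart in α-KG tumors, with sums of 1075 to 2862 FPKM against at most 111.25 in any other tumor. Hemoglobin RNA made up 2.09% to 2.23% of the FPKM sum in combination tumors and 4.23% to 22.2% elsewhere. The 4 skeletal muscle markers summed to 40.3 to 524.46 FPKM in vehicle tumors and to at most 53.19 FPKM in any other tumor, and their part in the comparisons with vehicle was not tested.

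On mouse assembly GRCm38.p6, Pdcd1 (NCBI gene 18566, PD-1) lies at chr1:94038305-94052553 on the minus strand. Ctla4 (12477) lies at chr1:60909025-60915832 and Cd244a (18106, 2B4) at chr1:171558718-171585316, both on the plus strand. Lag3 (16768) lies at chr6:124904359-124912434 on the minus strand and Havcr2 (171285) at chr11:46454931-46481255 on the plus strand. Tigit (100043314), at chr16:43626137-43665125 on the minus strand, and Btla (208154), at chr16:45223705-45252895 on the plus strand, share a chromosome. Cd160 (54215) lies at chr3:96798763-96829351 on the minus strand, where its exons overlap those of Pdzk1 on the other strand. Whether the counting used strand is not stated, so reads of the shared stretch could have gone to either gene. Pdzk1 was listed at 0.15 FPKM or less in every tumor.

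RefSeq start sites gave 250 bases of upstream sequence for 7 of the 8 genes (8 windows, since Cd160 had 2), with Lag3 unmatched. Of these, 4 are shown: Pdcd1 and Tigit, whose levels moved together across tumors, Havcr2, whose window held 4 motif matches, and Cd244a, whose levels followed another pattern. Sequences run 5′ to 3′ on the strand of the gene on GRCm38.p6 and end at the base before the start site. For Tigit, Cd244a and Btla, and for the Cd160 window at chr3:96814522-96814771, window and start site lie inside the gene span given above. Capitals mark matches, on either strand, to AP-1 (TGANTCA), RUNX (TGTGGT), ETS (GGAAGT) and the STAT element GAS (TTCNNNGAA), which bind factor families active in stimulated lymphocytes.
Pdcd1, chr1:94052554-94052803, minus strand: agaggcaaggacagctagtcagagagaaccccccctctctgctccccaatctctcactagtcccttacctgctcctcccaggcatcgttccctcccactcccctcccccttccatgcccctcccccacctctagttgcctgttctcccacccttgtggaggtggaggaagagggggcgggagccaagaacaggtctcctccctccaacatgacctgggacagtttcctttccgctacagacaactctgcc
Tigit, chr16:43664185-43664434, minus strand: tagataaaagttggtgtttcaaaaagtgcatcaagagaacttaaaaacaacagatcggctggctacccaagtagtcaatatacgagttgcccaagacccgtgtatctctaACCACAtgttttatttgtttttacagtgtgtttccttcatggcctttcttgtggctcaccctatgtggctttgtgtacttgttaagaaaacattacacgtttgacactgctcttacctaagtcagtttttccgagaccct
Havcr2, chr11:46454681-46454930, plus strand: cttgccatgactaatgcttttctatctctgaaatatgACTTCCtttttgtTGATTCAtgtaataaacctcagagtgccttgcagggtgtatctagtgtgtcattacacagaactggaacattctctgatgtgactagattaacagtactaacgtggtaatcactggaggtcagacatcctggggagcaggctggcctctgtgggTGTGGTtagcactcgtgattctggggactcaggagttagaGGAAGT
Cd244a, chr1:171558943-171559192, plus strand: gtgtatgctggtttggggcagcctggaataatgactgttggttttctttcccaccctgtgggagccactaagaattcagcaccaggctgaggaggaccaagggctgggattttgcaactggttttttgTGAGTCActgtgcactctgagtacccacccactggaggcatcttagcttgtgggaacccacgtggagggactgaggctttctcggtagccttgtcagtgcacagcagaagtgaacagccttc

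The Havcr2 window held 1 AP-1, 1 RUNX and 2 ETS matches, the Cd244a window 1 AP-1 match and the Tigit window 1 RUNX match. Neither the Pdcd1 nor the Ctla4 window held any of the 4 motifs. RUNX matches occurred in windows of 4 of the 7 genes (Havcr2, Tigit, Btla and Cd160), ETS matches in 3, AP-1 matches in 2 and a GAS match in 1 (Cd160). Counted by window, 5 of the 8 held a RUNX, 3 an ETS, 2 an AP-1 and 1 a GAS match. Of 32851 mouse windows of the same length, 14.0% held a RUNX, 19.7% an ETS, 6.75% an AP-1 and 7.02% a GAS match. These are matches of letters in a short window, with no measure of binding.

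Pdcd1 encodes PD-1, the receptor that the therapeutic antibody binds. It was at 0.69, 0.72, 0 and 0.07 FPKM in the 4 vehicle tumors, at 0.6, 3.93, 5.1 and 1.25 FPKM with anti-PD1, at 0.54, 3.06, 0.66 and 0.44 FPKM with α-KG, and at 24.76, 7.84, 21.02 and 3.15 FPKM with the combination. Every combination tumor was above every vehicle and α-KG tumor, while the lowest of them lay within the anti-PD1 range. Group means were 0.37 ± 0.388 FPKM in vehicle, 2.72 ± 2.14 with anti-PD1, 1.18 ± 1.26 with α-KG and 14.2 ± 10.3 in combination tumors (SD, n = 4).

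Lag3 encodes a receptor for MHC class II that restrains T-cell expansion. Its values were 1.35, 0.94, 0.34 and 0.2 FPKM in vehicle, 0.71, 2.91, 5.67 and 2.03 with anti-PD1, 0.93, 3.89, 1.16 and 0.67 with α-KG, and 25.12, 8.72, 25.08 and 4.22 in combination tumors. The order of the tumors closely resembled that of Pdcd1, with combination tumors 1 and 3 highest, tumor 2 between and tumor 4 lowest. Tigit, a receptor that competes with the activating Cd226 for Pvr, was at 2.14, 2.33, 1.42 and 1.27 FPKM in vehicle and 1.65, 5.09, 5.94 and 2.78 FPKM in anti-PD1 tumors. It was at 1.82, 5.89, 1.89 and 1.99 FPKM with α-KG and 24, 9.63, 22.52 and 4.45 FPKM in combination tumors. Tigit had the highest vehicle mean of the 8 (1.79 ± 0.523 FPKM, SD, n = 4), and its combination tumors overlapped both single treatments but not vehicle.

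Ctla4, which outcompetes Cd28 for Cd80 and Cd86, was at 0.53, 0.62, 0.08 and 0.07 FPKM in vehicle and at 0.36, 0.92, 0.94 and 0.59 FPKM in anti-PD1 tumors. It was at 0.38, 0.96, 0.18 and 0.72 FPKM with α-KG and 8.17, 2.64, 5.49 and 2.44 FPKM in combination tumors. No tumor of the other groups reached 1 FPKM, so the combination tumors stood above all 12 others. Havcr2 encodes TIM-3, whose ligands include galectin-9. It measured 1.64, 1.09, 0.5 and 0.61 FPKM in vehicle, 1.52, 3.78, 4.06 and 2.11 with anti-PD1, 2.68, 2.96, 1.87 and 2.49 with α-KG, and 12.02, 5.39, 11.87 and 3.87 in combination tumors. All 4 α-KG tumors were above all 4 vehicle tumors, which among the other receptors held only for Cd244a.

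Cd160, which binds HVEM (Tnfrsf14), was among the lowest of the 8, at 0.03 to 0.22 FPKM in vehicle, 0.21 to 0.53 with anti-PD1 and 0.07 to 0.26 in α-KG tumors. With the combination it was at 2.36, 1.2, 1.62 and 0.47 FPKM, and these tumors overlapped only the anti-PD1 group. Btla, the other HVEM receptor, was at 0.27, 0.17, 0.43 and 0.59 FPKM in vehicle, 0.26, 0.36, 0.34 and 0.36 with anti-PD1, 0.32, 1.93, 0.36 and 0.49 with α-KG, and 1.83, 0.51, 2 and 0.48 in combination tumors. Only α-KG tumor 2 and combination tumors 1 and 3 exceeded 1 FPKM for Btla. In α-KG tumor 2 the 7 B-cell markers summed to 37.96 FPKM, against at most 9.34 FPKM in any combination tumor.

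Cd244a encodes a receptor of the SLAM family that binds Cd48 and can inhibit or activate depending on its adaptor proteins. It was at 0.52, 0.12, 0.18 and 0.17 FPKM in vehicle, 0.35, 0.86, 0.81 and 0.48 with anti-PD1, 2.65, 1.77, 3.04 and 3.37 with α-KG, and 3.33, 0.88, 3.79 and 0.95 in combination tumors. It was the only receptor of the 8 whose highest mean was in α-KG tumors (2.71 ± 0.691 FPKM, against 2.24 ± 1.54 FPKM with the combination, SD, n = 4). Within the α-KG group its lowest tumor was tumor 2, which was the highest of that group for the other 7 receptors.

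**Figure D1:**
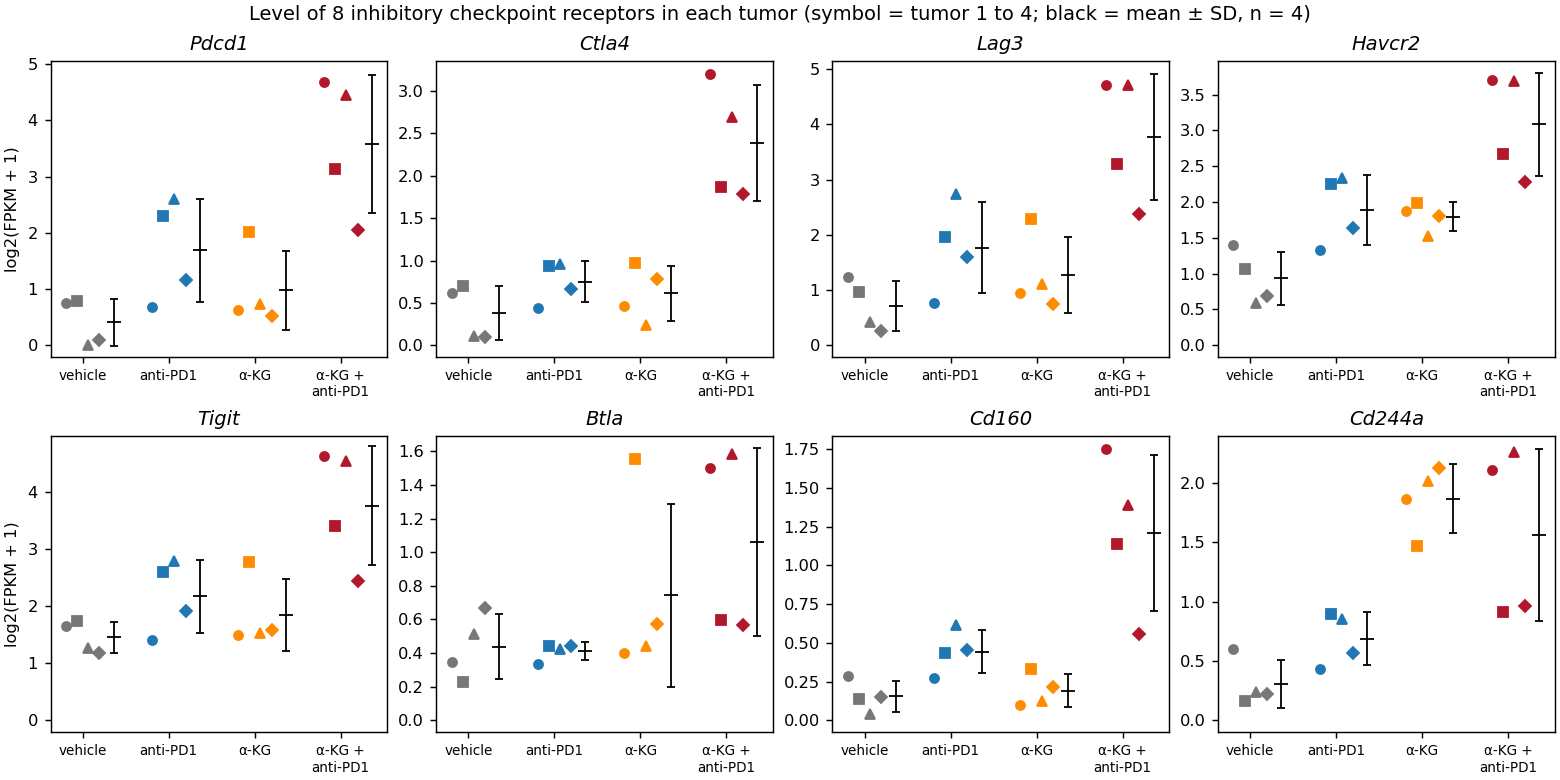
Level of the 8 receptors as log2(FPKM + 1) in each tumor, by group, with tumors 1 to 4 of each group shown as circle, square, triangle and diamond and black bars as mean ± SD (n = 4). Vertical scales differ between panels. The combination group has the highest mean for 7 receptors, and the α-KG group for Cd244a.

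Ordered by mean level, Pdcd1, Ctla4, Lag3, Havcr2, Tigit and Cd160 all ran from vehicle through α-KG and anti-PD1 to the combination. Along that order only the last step passed the test described next, and vehicle, α-KG and anti-PD1 neighbors were not distinguished. Btla ran from anti-PD1 through vehicle and α-KG to the combination, with no neighboring pair distinguished. Cd244a ran from vehicle through anti-PD1 and the combination to α-KG, and of its neighbors only anti-PD1 and the combination differed. In these bulk samples, more cells that carry a receptor and more receptor RNA per cell cannot be told apart.

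Against vehicle, combination tumors had higher levels of 7 of the 8 receptors, at an adjusted p under 0.05 in limma over all genes tested. The difference in log2(FPKM + 1) was 3.18 for Pdcd1 (SE 0.544, adjusted p = 0.000601), 3.05 for Lag3 (SE 0.511, adjusted p = 0.000567), 2.30 for Tigit (SE 0.440, adjusted p = 0.00107), 2.15 for Havcr2 (SE 0.308, adjusted p = 0.000417) and 2.01 for Ctla4 (SE 0.276, adjusted p = 0.000417). It was 1.25 for Cd244a (adjusted p = 0.00214) and 1.05 for Cd160 (adjusted p = 0.000641), on a scale that compresses differences at levels around 1 FPKM and under. Btla differed by 0.62 (95% confidence interval 0.07 to 1.18, adjusted p = 0.0621). It passed when all tumors were rescaled to the same FPKM sum (adjusted p = 0.0284), or without α-KG tumor 2 or combination tumor 2 or 4.

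The count of 7 stands against 34.9% of the 12850 genes tested that were called higher in this comparison, and the median difference was 2.08 over the receptors and 0.15 over all genes. That background moved with the scaling between tumors: 4479 genes were called higher and 1348 lower on the values as deposited, 2241 and 3994 after quantile normalization, 2197 and 4803 once each tumor was centered on its median, and 6294 and 250 with equal FPKM sums. The receptors called higher numbered 7, 7, 7 and 8 in the same order, while the median difference over all genes was 0.15, -0.11, -0.16 and 0.34. The ranges of the 2 groups did not overlap for 7 receptors, as for 28.2% of all genes in that direction. T-cell markers were higher for 10 of 10 genes tested, macrophage markers for 8 of 8 and natural killer markers for 4 of 4, and their part in the receptor differences was not tested. The same 4 vehicle tumors enter every comparison with vehicle, as do the 4 combination tumors in theirs, so these comparisons are not independent of each other.

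Adding α-KG to anti-PD1 gave higher levels of 7 of 8 receptors than anti-PD1 alone, against 14.2% of all genes called higher. Ctla4 differed by 1.63 (SE 0.276, adjusted p = 0.00791), Cd160 by 0.76 (adjusted p = 0.0187), Lag3 by 2.00 (adjusted p = 0.0232), Havcr2 by 1.20 (adjusted p = 0.0235), Tigit by 1.58 (adjusted p = 0.0305), Pdcd1 by 1.90 (adjusted p = 0.0331) and Cd244a by 0.87 (adjusted p = 0.0412). Btla differed by 0.65 (adjusted p = 0.0935). The median difference was 1.39 over the receptors and 0.12 over all genes, and for Ctla4, Btla and Cd244a the ranges did not overlap, as for 13.6% of all genes. Over all genes 1819 were higher and 168 lower as deposited, 721 and 1082 after quantile normalization, 802 and 1968 after median centering, and 4198 and 36 with equal sums, where 7, 6, 6 and 8 receptors were called higher. Most of these calls rested on few tumors: without anti-PD1 tumor 1, anti-PD1 tumor 4 or combination tumor 3 the count was 1, and without combination tumor 1 it was 2. Ctla4 passed in each of these fits (adjusted p at most 0.0356), but when only these 2 groups were fitted no receptor passed, with Ctla4 at an adjusted p of 0.0507. That fit called 0 of the 12850 genes in limma, with 4077 at an unadjusted p under 0.05.

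Adding anti-PD1 to α-KG gave higher levels of 6 of 8 receptors than α-KG alone, against 31.8% of all genes. Pdcd1 differed by 2.61 (SE 0.544, adjusted p = 0.00246), Lag3 by 2.50 (adjusted p = 0.00223), Tigit by 1.92 (adjusted p = 0.00413), Ctla4 by 1.77 (adjusted p = 0.000517), Havcr2 by 1.29 (adjusted p = 0.00503) and Cd160 by 1.02 (adjusted p = 0.00118). Cd244a and Btla were the exceptions, at -0.31 (95% confidence interval -0.88 to 0.26, adjusted p = 0.385) and 0.32 (-0.23 to 0.87, adjusted p = 0.349). Ranges did not overlap for 5 receptors, as for 29.7% of all genes. All 6 calls held without any 1 tumor. They also held after quantile normalization (2023 genes higher and 2020 lower, against 4086 and 832 as deposited), median centering (1758 and 3127) and with equal sums (6829 and 368).

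Anti-PD1 alone changed none of the 8 receptors relative to vehicle in limma, where 0.467% of all genes were called higher and 0.28% lower. Havcr2 (0.96, 95% confidence interval 0.30 to 1.61, adjusted p = 0.135) and Pdcd1 (1.28, 0.12 to 2.44, adjusted p = 0.254) had intervals above 0 before adjustment, as the only 2 at an unadjusted p under 0.05. Lag3 differed by 1.05 (-0.04 to 2.14), Tigit by 0.72 (-0.22 to 1.66) and Btla by -0.03 (-0.58 to 0.52), so the intervals for Lag3 and Tigit reach past 1 log2 unit. Anti-PD1 tumor 1 was within the vehicle range for all 8 receptors, at 5.66 FPKM in sum against 9.97 to 23.39 FPKM in the other 3.

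With α-KG alone, Cd244a was the only receptor that changed relative to vehicle, by 1.56 (SE 0.269, adjusted p = 0.000932), where 8.4% of all genes were called higher. It was also higher than with anti-PD1, by 1.18 (adjusted p = 0.0217, against 2.8% of all genes), a call that was lost without anti-PD1 tumor 1 or 4 or α-KG tumor 1, 3 or 4. Havcr2 differed from vehicle by 0.86 (95% confidence interval 0.21 to 1.52, adjusted p = 0.0694) and passed without vehicle tumor 1 or combination tumor 4, which raised the count to 2. Pdcd1 (0.57, -0.59 to 1.72), Lag3 (0.55, -0.53 to 1.64) and Tigit (0.39, -0.55 to 1.32) did not pass. Ranges did not overlap with vehicle for Cd244a and Havcr2, as for 10.1% of all genes. The 6 neutrophil markers were all higher in α-KG than in vehicle tumors, and Csf3r, the G-CSF receptor of neutrophils, was at 34.96 to 82.84 FPKM against 1.99 to 3.46 FPKM. Their part in the difference of Cd244a was not tested.

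**Figure D2:**
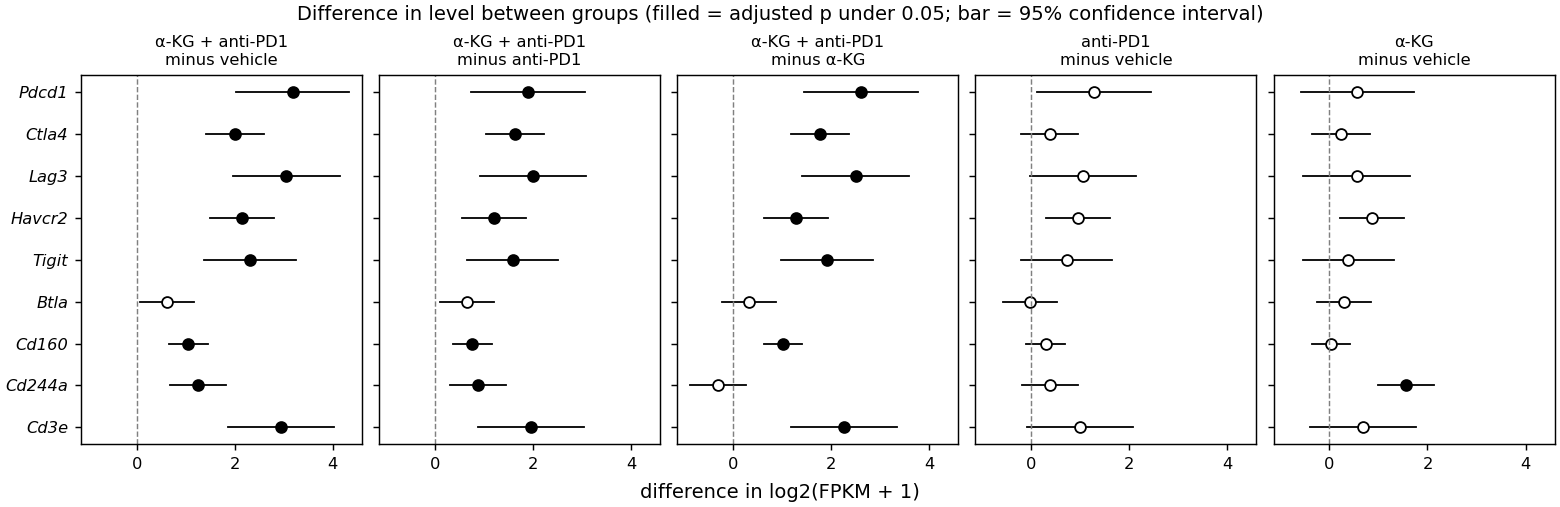
Difference in log2(FPKM + 1) between groups for the 8 receptors and Cd3e, with 95% confidence intervals and filled points for an adjusted p under 0.05. Pdcd1, Lag3 and Tigit follow Cd3e from panel to panel, while Cd244a is alone in passing in the comparison of α-KG with vehicle.

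The effect of anti-PD1 was also compared between tumors with and without α-KG (the interaction). It was larger with α-KG for Ctla4, by 1.40 (SE 0.390, adjusted p = 0.0333), and 1 of 8 receptors therefore passed against 7.99% of all genes. For all genes the interaction was positive for 1027 and negative for 402 as deposited, 569 and 559 after quantile normalization, 389 and 633 after median centering, and 2110 and 284 with equal sums. For Lag3 (1.45, adjusted p = 0.193), Pdcd1 (1.33, adjusted p = 0.260), Tigit (1.20, adjusted p = 0.211) and Cd160 (0.73, adjusted p = 0.0791) the estimates were positive without passing, and for Cd244a the estimate was negative (-0.69, adjusted p = 0.240). The call for Ctla4 was lost without vehicle tumor 1 or 2, anti-PD1 tumor 1 or 4, α-KG tumor 1 or 3 or combination tumor 3, where the estimate stayed at 1.27 to 1.37.

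Receptor levels were next set against Cd3e, the signaling chain that all T cells carry, as log2((FPKM + 0.1)/(Cd3e + 0.1)). Cd3e was at 0.98, 0.5, 0.09 and 0.18 FPKM in vehicle, 1.18, 2.37, 2.77 and 1.18 with anti-PD1, 0.73, 3.32, 0.74 and 0.96 with α-KG, and 25.57, 6.3, 19.82 and 2.37 in combination tumors. Its difference in level between combination and vehicle tumors was 2.95 (SE 0.509, adjusted p = 0.000625), close to the 3.18 of Pdcd1 and 3.05 of Lag3. Where Cd3e is near 0.1 FPKM, as in vehicle tumors 3 and 4, the ratio is set in large part by the added 0.1.

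The ratios of Pdcd1 and Lag3 to Cd3e passed the limma test in none of the 6 comparisons between groups. Cd3e enters every ratio, so its spread between tumors is part of every interval. That spread is shared by all genes, which the fit does not allow for, so limma intervals and p-values on the ratio scales can be too small. The geometric mean ratio of Pdcd1 was 0.752 in vehicle, 1.14 with anti-PD1, 0.757 with α-KG and 1.14 in combination tumors, and that of Lag3 was 1.55, 1.27, 1.12 and 1.32. Against vehicle, the log2 ratio of combination tumors differed by 0.60 for Pdcd1 (95% confidence interval -0.95 to 2.14, adjusted p = 0.450), -0.24 for Lag3 (-1.77 to 1.30, adjusted p = 0.763) and -0.83 for Ctla4 (-2.41 to 0.74, adjusted p = 0.302). These intervals are wide, and for Lag3 a change of 1 log2 unit in either direction lies within them. Against α-KG tumors the ratio of Pdcd1 was higher in every combination tumor (0.968 to 1.32 against 0.509 to 0.924), a difference of 0.59 in log2 (limma adjusted p = 0.461), and such a separation upward occurred for 0.187% of all genes. Cd3e itself was 2.27 higher in log2(FPKM + 1) there, and 94.1% of all genes were called lower relative to it. With 0.1 FPKM added to both, the ratio of Pdcd1 to Cd8a overlapped, at 0.783 to 1.01 with the combination and 0.818 to 1.12 with α-KG.

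Tigit, Btla, Cd160 and Cd244a were lower relative to Cd3e with the combination than with vehicle. In combination against vehicle tumors the log2 ratio differed by -3.14 for Btla (adjusted p = 0.000144), -1.87 for Cd244a (adjusted p = 0.0205), -1.76 for Cd160 (adjusted p = 0.0367) and -1.70 for Tigit (adjusted p = 0.0304), with Havcr2 at -1.51 (adjusted p = 0.0545). These 4 of 8 receptors stand against 97.6% of all genes that were lower relative to Cd3e, so a lower ratio was the rule for genes in general. Ranges did not overlap for Havcr2, Tigit, Btla and Cd160, as for 95.5% of all genes. The geometric mean ratio of Tigit was 4.26 in vehicle and 1.31 in combination tumors, and that of Btla 1.01 and 0.115. In vehicle tumors 3 and 4 Tigit was at 1.42 and 1.27 FPKM, with Cd3e at 0.09 and 0.18 FPKM. Only Btla was called without vehicle tumor 3 or vehicle tumor 4, or with these 2 groups alone, and without combination tumor 1 or 3 the count was 2. Tigit depended on the added constant, at -0.99 (adjusted p = 0.131) with 0.5 FPKM and -0.65 (adjusted p = 0.268) with 1 FPKM. Havcr2 passed with the mean of Cd3d, Cd3e and Cd3g as the reference (-1.86, adjusted p = 0.0306).

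Relative to Cd3e, no receptor passed between combination and anti-PD1 tumors, where 86.7% of all genes were lower. With 1 FPKM in place of 0.1 added, Btla (-1.30, adjusted p = 0.0241) and Cd160 (-1.19, adjusted p = 0.0385) passed. The differences were -0.01 for Pdcd1 (-1.55 to 1.54), 0.05 for Lag3 (-1.48 to 1.59), 0.11 for Ctla4 (-1.46 to 1.69), -0.55 for Tigit (-2.07 to 0.98) and -0.92 for Havcr2 (-2.45 to 0.61). Against α-KG alone, Cd244a (-3.42, adjusted p = 0.000411) and Btla (-2.25, adjusted p = 0.00720) were lower with the combination, against 94.1% of all genes. In the α-KG group the ratio of Cd244a to Cd3e was 3.31, 0.547, 3.74 and 3.27, where the low value is that of tumor 2, and in the other groups it was at most 1.47. Neither its log2 ratio difference of α-KG from vehicle tumors (1.55, 95% confidence interval -0.01 to 3.12, adjusted p = 0.0941) nor that from anti-PD1 tumors (2.54, 0.97 to 4.10, adjusted p = 0.123) passed, where 0.568% and 1.06% of all genes were called higher. Without α-KG tumor 2 the difference from anti-PD1 was 3.20 (adjusted p = 0.00751), and without combination tumor 4 both passed (adjusted p = 0.0452 against vehicle and 0.0249 against anti-PD1). Btla was lower relative to Cd3e with anti-PD1 than with vehicle (-2.13, adjusted p = 0.0216, against 87.3% of all genes), which was lost without vehicle tumor 3 or 4 or anti-PD1 tumor 2 or 3 (-2.02 to -1.64). It was also lost with 0.5 FPKM (-1.41, adjusted p = 0.0909) or 1 FPKM added (-1.02).

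With Ptprc (CD45), which all leukocytes carry, as the reference in place of Cd3e, the comparisons with α-KG tumors and that of combination with vehicle tumors changed. Ptprc was at 16.54 to 23.5 FPKM in α-KG tumors, against 0.65 to 4.31 in vehicle and 9.34 to 37.63 in combination tumors. Relative to Ptprc, 7 of 8 receptors were lower in α-KG than in vehicle tumors, all but Cd244a, against 97.2% of all genes. In combination against α-KG tumors 5 of 8 were higher relative to Ptprc, against 2.12% of all genes, namely Pdcd1 (3.41, adjusted p = 1.86e-06), Lag3 (3.05, adjusted p = 1.88e-05), Ctla4 (2.77), Cd160 (2.41) and Tigit (2.15). The T-cell gene Cd3e was at 0.73 to 3.32 FPKM in α-KG and 2.37 to 25.57 FPKM in combination tumors. The part of T-cell content in these ratios to Ptprc was not tested. Cd244a was at -0.60 on that scale (adjusted p = 1). In combination against vehicle tumors Pdcd1 was higher relative to Ptprc (1.42, adjusted p = 0.0185, against 0.132% of all genes) and Btla was lower (-2.32, against 95.5%). Cd160 (-0.94, adjusted p = 0.191), Cd244a (-1.05, adjusted p = 0.0980) and Tigit (-0.88, adjusted p = 0.128) no longer passed. Relative to Cd3e, Pdcd1 did not pass in that comparison (0.60, limma adjusted p = 0.450), and Cd3e was at 0.09 to 0.98 FPKM in vehicle tumors.

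**Figure D3:**
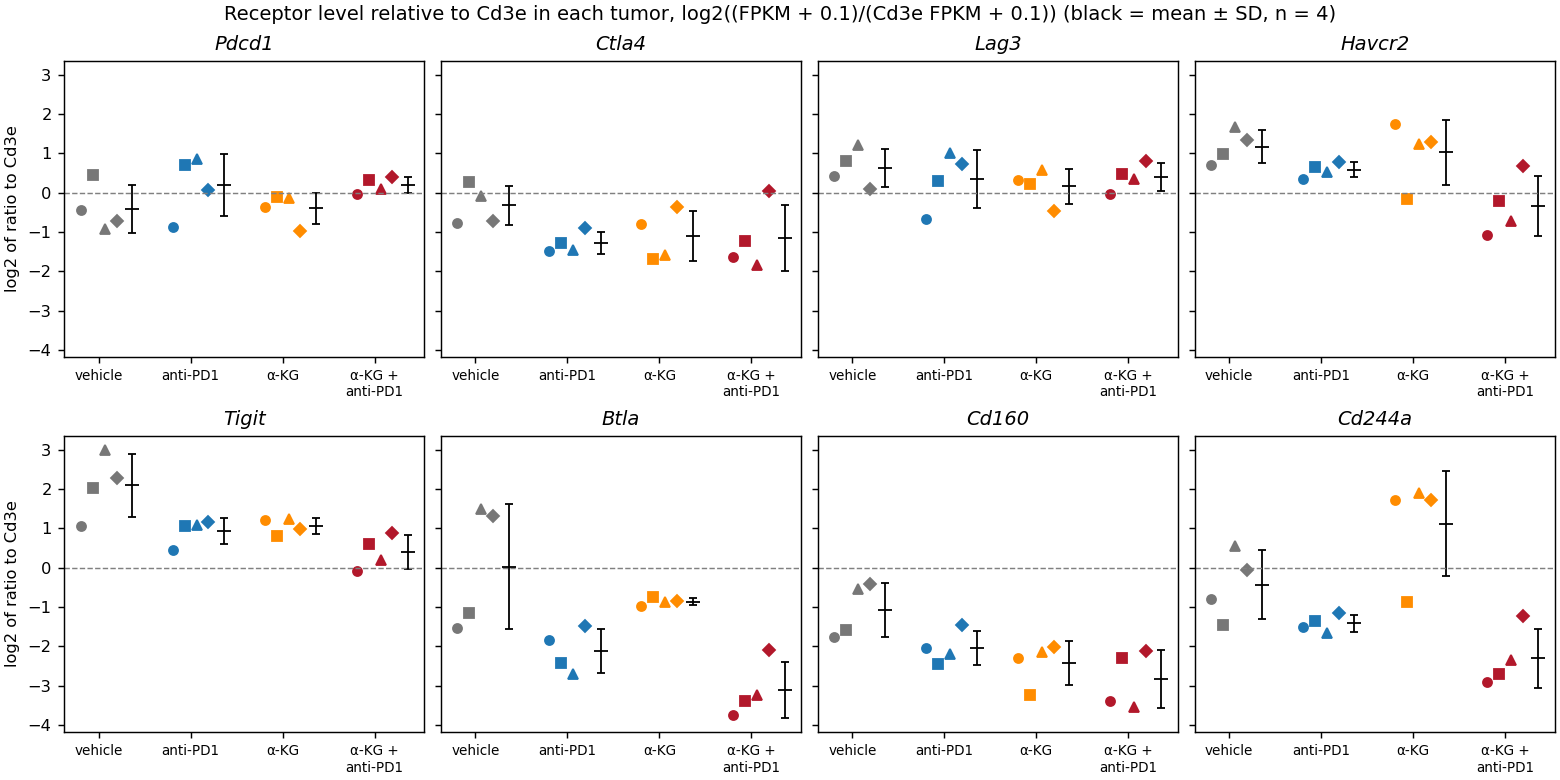
Log2 ratio of each receptor to Cd3e, with 0.1 FPKM added to both, in each tumor by group, with tumors 1 to 4 as circle, square, triangle and diamond and black bars as mean ± SD (n = 4). The dashed line marks a level equal to Cd3e. Pdcd1 and Lag3 stay near the line in all groups, Btla falls lowest in combination tumors, and 3 of the 4 α-KG tumors stand out for Cd244a.

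The receptors took different shares of their summed RNA in the 4 groups. Summed over the 8, receptor RNA was 2.98 to 7.36 FPKM in vehicle, 5.66 to 23.39 with anti-PD1, 9.25 to 20.72 with α-KG and 20.03 to 101.59 in combination tumors. Tigit was the largest component in vehicle tumors, with a median share of 39.7% (29.1% to 47.7%), and made up 23.9% (22.2% to 26.2%) with the combination. In vehicle tumors 3 and 4 Tigit was at 1.42 and 1.27 FPKM where T-cell genes were nearly absent. Cd3e was at 0.09 and 0.18 FPKM and Cd8a at 0.07 and 0.16 FPKM in these tumors. The part of this Tigit RNA in the shares was not tested. The median share of Pdcd1 was 5.82% (0% to 11.8%) in vehicle and 21.9% (15.7% to 24.4%) in combination tumors, and that of Lag3 13.4% and 24.2%. Cd244a made up 28.2%, 32.9% and 32.6% in α-KG tumors 1, 3 and 4 and 8.54% in tumor 2, and its median share was 30.4% in that group against 5.77% in vehicle, 4.77% with anti-PD1 and 3.67% in combination tumors. Shares within a tumor sum to a fixed total, so a rise of 1 receptor lowers the others.

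**Figure D4:**
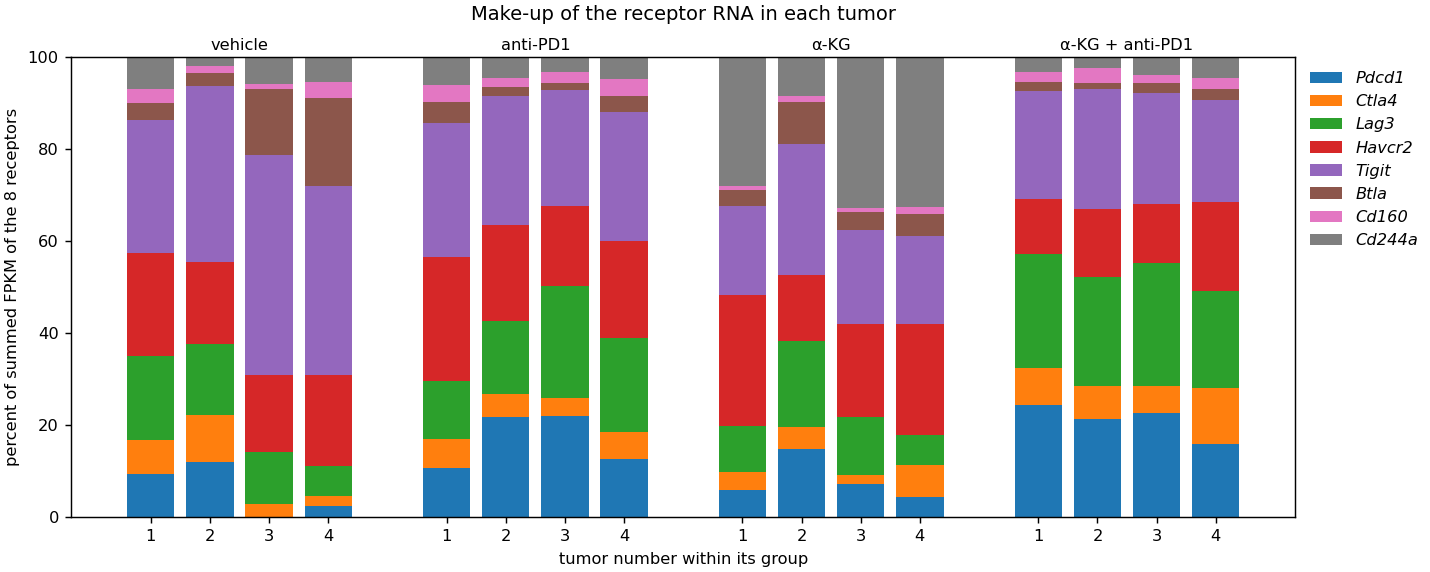
Share of each receptor in the summed FPKM of the 8, as stacked percentages for each tumor, grouped by treatment. Tigit is the largest component of every vehicle tumor, and the Cd244a share is widest in α-KG tumors 1, 3 and 4.

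Across the 16 tumors, the genes outside the 8 that most resembled each receptor were found by Pearson's r of log2(FPKM + 1). For Pdcd1, Lag3 and Tigit the closest gene was Cd8a, the CD8 co-receptor, at r = 0.994, 0.994 and 0.993 (0.980, 0.982 and 0.986 on deviations from group means). Next came Sh2d2a and Thy1 for Pdcd1, Cd27 and the perforin gene Prf1 for Lag3, and Cd6 and Lck for Tigit. For Ctla4 they were Fcho1 (r = 0.975), Fnbp1 and Sla2, and for Cd160 Cysltr2 (r = 0.983), Cxcr6 and Podnl1. The mean of the 8 receptors was closest to Ptpn22 (r = 0.995), Cd6, Gimap4, Cd27 and Cd3e (r = 0.990).

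Havcr2 was closest to Esyt1 (r = 0.988), Casp1 and Lrmp. Its r was 0.957 with Cd3e, 0.949 with Cd8a and 0.861 with the macrophage gene Adgre1 (0.896, 0.908 and 0.776 on deviations from group means). Btla had the weakest best match, Cd55 (r = 0.914), followed by 2310033P09Rik and the B-cell gene Fcrla (r = 0.886). With the T-cell genes Cd3e, Cd4 and Cd8a the r of Btla was 0.767, 0.840 and 0.712. On deviations from group means these were 0.785, 0.841 and 0.726. Cd244a was closest to Glrx (r = 0.983), Traf1 and Sema4d, and its r was 0.560 with Cd3e, 0.844 with Csf3r and 0.929 with Ptprc. On deviations from group means these were 0.667, 0.650 and 0.822. With the other neutrophil genes examined, Cxcr2 and S100a8, its r was 0.746 and 0.581, and 0.153 and -0.0974 on deviations from group means. With the natural killer gene Ncr1 it was 0.573, and 0.868 on deviations from group means. All these values describe the same 16 tumors, which share the differences between groups, and a high r over them does not tell which cells carried the RNA.

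**Figure D5:**
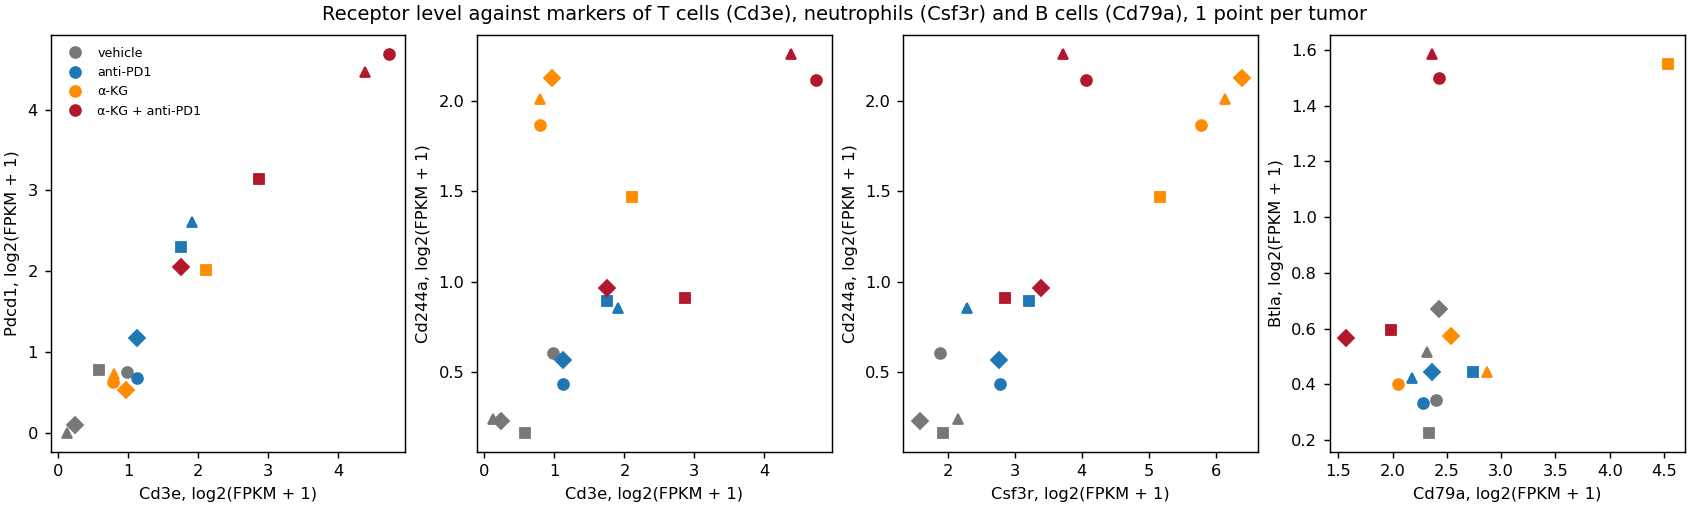
Levels as log2(FPKM + 1), 1 point per tumor, of Pdcd1 and Cd244a against the T-cell gene Cd3e, Cd244a against the neutrophil gene Csf3r, and Btla against the B-cell gene Cd79a, with tumors 1 to 4 of each group as circle, square, triangle and diamond. Pdcd1 follows Cd3e across groups (r = 0.978), whereas 3 α-KG tumors have high Cd244a with little Cd3e, and the α-KG tumor with the highest Cd79a (22.27 FPKM) also has high Btla. Combination tumors 1 and 3 have similar Btla (1.83 and 2 FPKM) with Cd79a at 4.38 and 4.16 FPKM.

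Ligands of the receptors were mostly higher with the combination. Of 13 ligand genes tested (Fgl1, a LAG-3 ligand, was too low), 9 were higher and 1, Hmgb1, was lower (-0.29) with the combination than in vehicle tumors. These 9 stand against 34.9% of all genes called higher. The Hmgb1 difference is smaller in size than the shift of the all-gene median between the scalings given above. Cd274, which encodes PD-L1, differed by 2.34 (adjusted p = 0.000417), Cd48, the CD244 ligand, by 2.77 (adjusted p = 0.000465), Cd86 by 1.52 (adjusted p = 0.00119) and Tnfrsf14 by 1.46 (adjusted p = 0.00173). Pvr and Nectin2, which bind TIGIT, were at 0.07 (adjusted p = 0.671) and -0.31 (adjusted p = 0.0863). In α-KG against vehicle tumors 6 were higher and Nectin2 was lower (-0.48, adjusted p = 0.0289), the former including Cd274 (2.45, adjusted p = 4.82e-05), Cd80 (2.01, adjusted p = 4.91e-06) and Cd48 (1.76, adjusted p = 0.0113). Of all genes, 8.4% were called higher with α-KG than with vehicle. Anti-PD1 alone changed none of the 13, where 0.467% of all genes were called higher and 0.28% lower.

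Cd80, a ligand of CTLA-4 and CD28, had its highest mean in α-KG tumors. It was at 0.17 to 0.58 FPKM in vehicle, 0.7 to 1.71 with anti-PD1, 3.42 to 7.14 with α-KG and 1.07 to 2.31 in combination tumors, lower with the combination than with α-KG (-1.06, adjusted p = 0.00154). In the same comparison its receptor gene Ctla4 was at 1.77, Cd274 at -0.10 (adjusted p = 0.814) and the receptor gene of PD-L1, Pdcd1, at 2.61.

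Molecules downstream of and beside the receptors were counted in the same fit, where 34.9% of all genes were called higher with the combination than with vehicle. Of 11 signaling partners tested, 8 were higher with the combination than with vehicle, among them Lck (2.25), the kinase that starts T-cell receptor signaling, the phosphatase genes Inpp5d (2.02) and Ptpn6 (1.21), and the CD244 adaptor gene Sh2d1a (1.62). All 9 costimulatory receptors tested were higher, with Cd28 at 1.40, Icos at 1.19 and Cd226 at 1.31. Of 16 transcription factors tied to exhaustion, 11 were higher and 1, Bhlhe40, was lower (-0.52, adjusted p = 0.00447), with Tox at 2.22 (adjusted p = 0.00124) and Tcf7 at 0.49 (adjusted p = 0.139). Several were high where T-cell RNA was nearly absent. In vehicle tumor 3, with Cd3e at 0.09 FPKM, Tcf7 was at 6.46 FPKM, Id2 at 46.05, Nr4a1 at 50.27 and Bhlhe40 at 200.58. Others were low there, with Tox at 0.02 FPKM, and which cells carried this RNA was not tested. The regulatory T-cell gene Foxp3 differed by 1.14 (adjusted p = 0.000798), from 0.1 to 0.45 FPKM in vehicle and 0.71 to 3.12 FPKM with the combination. The median difference was 0.95 over the ligands, 0.55 over the signaling partners, 1.40 over the costimulatory receptors and 0.90 over the transcription factors, beside 0.15 over all genes.

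Other inhibitory receptors were also higher with the combination. All 13 tested, including Vsir (VISTA), Cd200r1, Lair1 and Cd96, were higher with the combination than with vehicle, with a median difference of 1.81. Of all genes, 34.9% were called higher there. In α-KG against vehicle tumors 8 of 13 were higher, among them Vsir, against 8.4% of all genes. In the comparison of anti-PD1 with vehicle 2 of 13 were higher, against 0.467% of all genes. Vsir, found mainly on myeloid cells, was at 0.93 to 3.59 FPKM in vehicle and 8.47 to 11.13 FPKM in α-KG tumors (1.98, adjusted p = 0.000964). No costimulatory receptor of the 9 changed with α-KG or with anti-PD1 alone in limma.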

How the data were processed

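RNA of 16 B16F10 tumors, 4 per group, was measured by stranded poly(A) RNA sequencing. The authors deposited 1 table of 18929 genes with FPKM values at 2 decimals, and no read counts. The submitters' processing notes name HISAT, Bowtie2 and mm10, while the program that gave FPKM, the annotation, any filter and the use of strand are not given in the sources used here. Levels were analyzed as log2(FPKM + 1) in limma 3.58.1 (R 4.3.3) with 1 mean per group over all 16 tumors and a trend in the prior variance. The filter kept 12850 genes that reached 0.5 FPKM in 4 tumors, p-values were two-sided and adjusted over all of them (Benjamini-Hochberg), and the threshold was 0.05. Relative levels were log2((FPKM + 0.1)/(Cd3e + 0.1)), fitted in the same way. Every gene is there divided by the same Cd3e value of its tumor, so much of the spread is shared between genes. The pooling of spread over genes in limma does not allow for this, so intervals and p-values on the ratio scales can be too small. The fit was tested on simulated data.

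The 8 receptors were all named, and beside them the 3 genes of highest Pearson's r with each (5 for their mean) and genes of fixed lists (ligands, signaling partners, other receptors, cell markers). Members and lists were chosen with earlier results of these data known. Alternatives were other pseudocounts, no filter, quantile normalization, median centering, equal sums, other reference genes, a replicate block, fits of only 2 groups and leaving out each tumor. Groups came from the sample labels. The tumors are separate animals per the study, so p-values measure the spread between tumors. Same-numbered tumors of different groups did not deviate together (24 pairs, r from -0.642 to 0.411, median 0.00689), so numbers were not taken as pairs. Upstream sequences were read from RefSeq on GRCm38.p6, and gene overlaps from GENCODE M21. Figures and descriptions used Python 3.11.15, pandas 2.3.3 and matplotlib 3.10.9.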

Additional observations from a re-analysis of the deposited data

Results flagged for a closer look

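Among 32 sets of 4 tumors (8 receptors in 4 groups), 5 held a tumor far from the other 3 by Dixon's criterion. Chance gives about 1 in 20 for independent, normally distributed values. These were FPKM of receptors that move together, and 4 of the 5 were the same tumor, so that rate is no measure for them. In the α-KG group, tumor 2 stood apart for Pdcd1 (3.06 FPKM, gap of 0.916 of the range), Lag3 (3.89 FPKM, 0.848), Tigit (5.89 FPKM, 0.958) and Btla (1.93 FPKM, 0.894). In the same tumor the T-cell markers summed to 41.16 FPKM and the B-cell markers to 37.96 FPKM, and their part in the 4 values was not tested. In the vehicle group, tumor 1 stood apart for Cd244a (0.52 FPKM, 0.85).

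The effect of anti-PD1 on Ctla4 differed between tumors with and without α-KG, by 1.40 in log2(FPKM + 1) (adjusted p = 0.0333, limma interaction). With α-KG the effect was 1.77 (adjusted p = 0.000517). Without α-KG it was 0.37 (adjusted p = 0.518). The difference did not pass with pseudocount 0.1 (1.71, adjusted p = 0.163), without the filter (adjusted p = 0.0541), with the replicate block (adjusted p = 0.0527) or in 7 of 16 fits that left out 1 tumor, and 7.99% of all genes were called in the same direction.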

How the results depend on the processing

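Depth is unknown without counts, which limits receptors below 1 FPKM most (Cd160, Btla and the vehicle tumors). Counts of receptors called moved as follows, and the cause was not tested. For levels, the combination against anti-PD1 gave 4 without a filter and 0 with only 2 groups, α-KG against vehicle gave 2 with pseudocount 0.1 or 0.5, median centering or only 2 groups, and the interaction gave 0 with pseudocount 0.1 or no filter and 2 with equal sums. With the replicate block the interaction gave 0 (Ctla4 1.40, adjusted p = 0.0527), and the block changed no other call. Relative to Cd3e, the combination gave 2 against vehicle with Ptprc (Pdcd1 higher, Btla lower) and 1 with only 2 groups, 3 with pseudocount 0.5 or 1 (without Tigit) and 5 with the mean of Cd3d, Cd3e and Cd3g (with Havcr2). It gave 2 against anti-PD1 with pseudocount 1 (Btla and Cd160) and 5 against α-KG with Ptprc. Anti-PD1 against vehicle gave 0 with pseudocount 0.5 or 1, and α-KG against vehicle 7 with Ptprc (all lower, against 97.2% of all genes). For α-KG against anti-PD1 the count was 6 with Ptprc, all lower, and 1 with only 2 groups (Cd244a, higher). The share of all genes in these last 2 fits is not given here, so their counts are not read as results about the receptors.

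Without 1 tumor at a time, the level counts were 7 to 8 (the combination against vehicle), 1 to 8 (against anti-PD1), 6 to 6 (against α-KG), 0 to 0 (anti-PD1 against vehicle), 1 to 2 (α-KG against vehicle), 0 to 1 (α-KG against anti-PD1) and 0 to 2 (interaction). The relative counts, in the same order without the interaction, were 1 to 5, 0 to 0, 2 to 3, 0 to 1, 0 to 1 and 0 to 1. Signs turned in levels for Btla with anti-PD1 against vehicle (-0.10 to 0.048), Cd160 with α-KG against vehicle (-0.0090 to 0.082) and Havcr2 with α-KG against anti-PD1 (-0.28 to 0.055). In relative levels they turned against anti-PD1 for Pdcd1 (-0.36 to 0.22), Ctla4 (-0.29 to 0.34) and Lag3 (-0.28 to 0.28) and against α-KG for Ctla4 (-0.45 to 0.19), all with the combination. They also turned for Lag3 with anti-PD1 against vehicle (-0.51 to 0.043), Pdcd1 (-0.16 to 0.30) and Havcr2 (-0.38 to 0.25) with α-KG against vehicle, and Ctla4 (-0.078 to 0.36), Lag3 (-0.51 to 0.044) and Tigit (-0.044 to 0.20) with α-KG against anti-PD1.

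Under the other settings Cd160 turned in level with α-KG against vehicle (-0.045 after quantile normalization, -0.00030 after centering). Relative values that turned with pseudocount 0.5 or 1 were Lag3 (0.016, 0.10) with the combination against vehicle, Ctla4 (-0.16, -0.32) against anti-PD1, and Pdcd1 (-0.14, -0.12) and Havcr2 (0.13, 0.18) with α-KG against vehicle. With pseudocount 1 alone Lag3 turned with anti-PD1 against vehicle (0.055), and Tigit (-0.023) and Cd160 (0.060) with α-KG against anti-PD1. With the mean of Cd3d, Cd3e and Cd3g, Pdcd1 turned to 0.0065 (combination against anti-PD1) and -0.22 (α-KG against vehicle). With Ptprc, the combination gave Lag3 0.58 against vehicle, Pdcd1 0.61 and Tigit 0.069 against anti-PD1, and Ctla4 2.77, Havcr2 1.46, Tigit 2.15, Btla 0.57 and Cd160 2.41 against α-KG. With Ptprc, α-KG gave Pdcd1 -1.99 and Cd244a -0.45 against vehicle, and Ctla4 -2.04, Havcr2 -1.76, Tigit -2.08 and Btla -0.96 against anti-PD1.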
